A study of Homo sapiens with 9 samples.

Results

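Transcripts of the Hippo pathway were examined in HepG2, an established cell line from a human liver cancer, 24 h after exposure to recombinant SPARC, a collagen-binding protein that cells secrete and that alters how they attach to the matrix. The genes were chosen by symbol: the angiomotin family members AMOTL1 and AMOTL2, the target genes CCN1, CCN2 and ANKRD1, the co-activators YAP1 and WWTR1 (TAZ), the DNA-binding factor TEAD1 and the kinases LATS1 and LATS2. Of these 10 genes, 9 were measured among 17687 genes, each by 1 transcript cluster, the set of probes that reads a gene on the array. AMOTL2 is not analysed here. AMOTL1 had been singled out in an earlier look at these data because it differed from untreated cells once untreated replicate 2 was left out. Its comparisons with untreated cells are therefore given as a description, and nothing is read from their test outcomes. The other genes were taken from the pathway, with those results known.

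The 9 arrays held 3 samples of untreated HepG2 cells, 3 of HepG2 cells given 200 ng/ml SPARC and 3 of cells given 800 ng/ml. All groups are the same cell line, with no genetic change named in the labels, and SPARC was the only agent named. Whether replicates were separate cultures is not stated, so the tests refer to the spread among these arrays, and that spread may be technical. The extraction protocol in the labels mentions the 800 ng/ml dose alone, whereas sample labels and design text give both doses.

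The Hippo pathway is a kinase cascade in which LATS1 and LATS2, activated by the kinases STK3 and STK4 with the scaffold SAV1 and the co-activators MOB1A and MOB1B, phosphorylate YAP1 and WWTR1 and hold them in the cytoplasm. When the cascade is off, both co-activators enter the nucleus, bind TEAD factors and induce genes such as CCN1, CCN2 and ANKRD1, the usual readouts of the pathway. Angiomotin proteins bind YAP1 and retain it at cell junctions and in the cytoplasm. In liver the pathway restrains organ growth and shapes the choice between hepatocyte and biliary fate, and it responds to cell contact and to the stiffness of the matrix. Its regulators act mainly through phosphorylation and location of proteins, which an RNA array does not measure.

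Untreated replicate 2 stood apart. It correlated with the other arrays at 0.889 to 0.919 across genes, against 0.979 to 0.991 among the other 8. In this array the median deviation from the mean of the other 8 arrays was 0.35 over the dimmest 25% of genes and −0.78 over the brightest 25%, in log2 units. The gap between these medians was 1.135 in untreated replicate 2, 0.148 in 200 ng/ml replicate 1 and between −0.064 and −0.002 in the other 7 arrays. Comparisons of the 9 genes with untreated cells are therefore given with and without this array. The hepatocyte markers ALB, AFP and APOA1 gave log2 signals of 12.14 to 12.46, 8.16 to 9.19 and 9.90 to 10.48 over the 9 arrays, and without background calls in the table no marker can be called absent. Over the 9 measured hepatocyte markers the mean deviation from the 8-array mean ranged from −0.24 to 0.02 in untreated cells, −0.12 to 0.01 at 200 ng/ml and 0.01 to 0.06 at 800 ng/ml. Over 7 fibroblast, 7 endothelial and 8 blood or Kupffer markers untreated replicate 2 was at 0.93, 0.84 and 0.87, and the other arrays lay between −0.20 and 0.19. Over 5 cholangiocyte markers untreated replicate 2 was at 0.013, within the range of the other arrays, −0.058 to 0.073. Over 8 glial and neuronal markers 800 ng/ml replicates 2 and 3 were at 1.445 and 1.45, and the other 7 arrays lay between −0.61 and −0.22. Unlike the other marker lists, this one was noted in earlier results of these data, so its level is given as a description only.

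None of the 9 genes passed the test in any comparison, with or without untreated replicate 2 (limma, Benjamini-Hochberg adjustment over all genes, threshold 0.05). The background was the same, since 0 of 17687 genes (0.0%) passed in each of these fits. At an unadjusted p under 0.05 there were 0 of the 9 genes in all 3 comparisons with 9 arrays, where all genes gave 1.78% at 200 ng/ml against untreated, 4.17% at 800 ng/ml and 2.41% between the doses. Without untreated replicate 2, and with AMOTL1 left aside because it was chosen there, 0 of the other 8 genes did so against untreated cells, where all genes gave 11.3% at 200 ng/ml and 5.36% at 800 ng/ml. Between the doses 0 of the 9 did, against 15.3% of all genes.

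**Figure D1:**
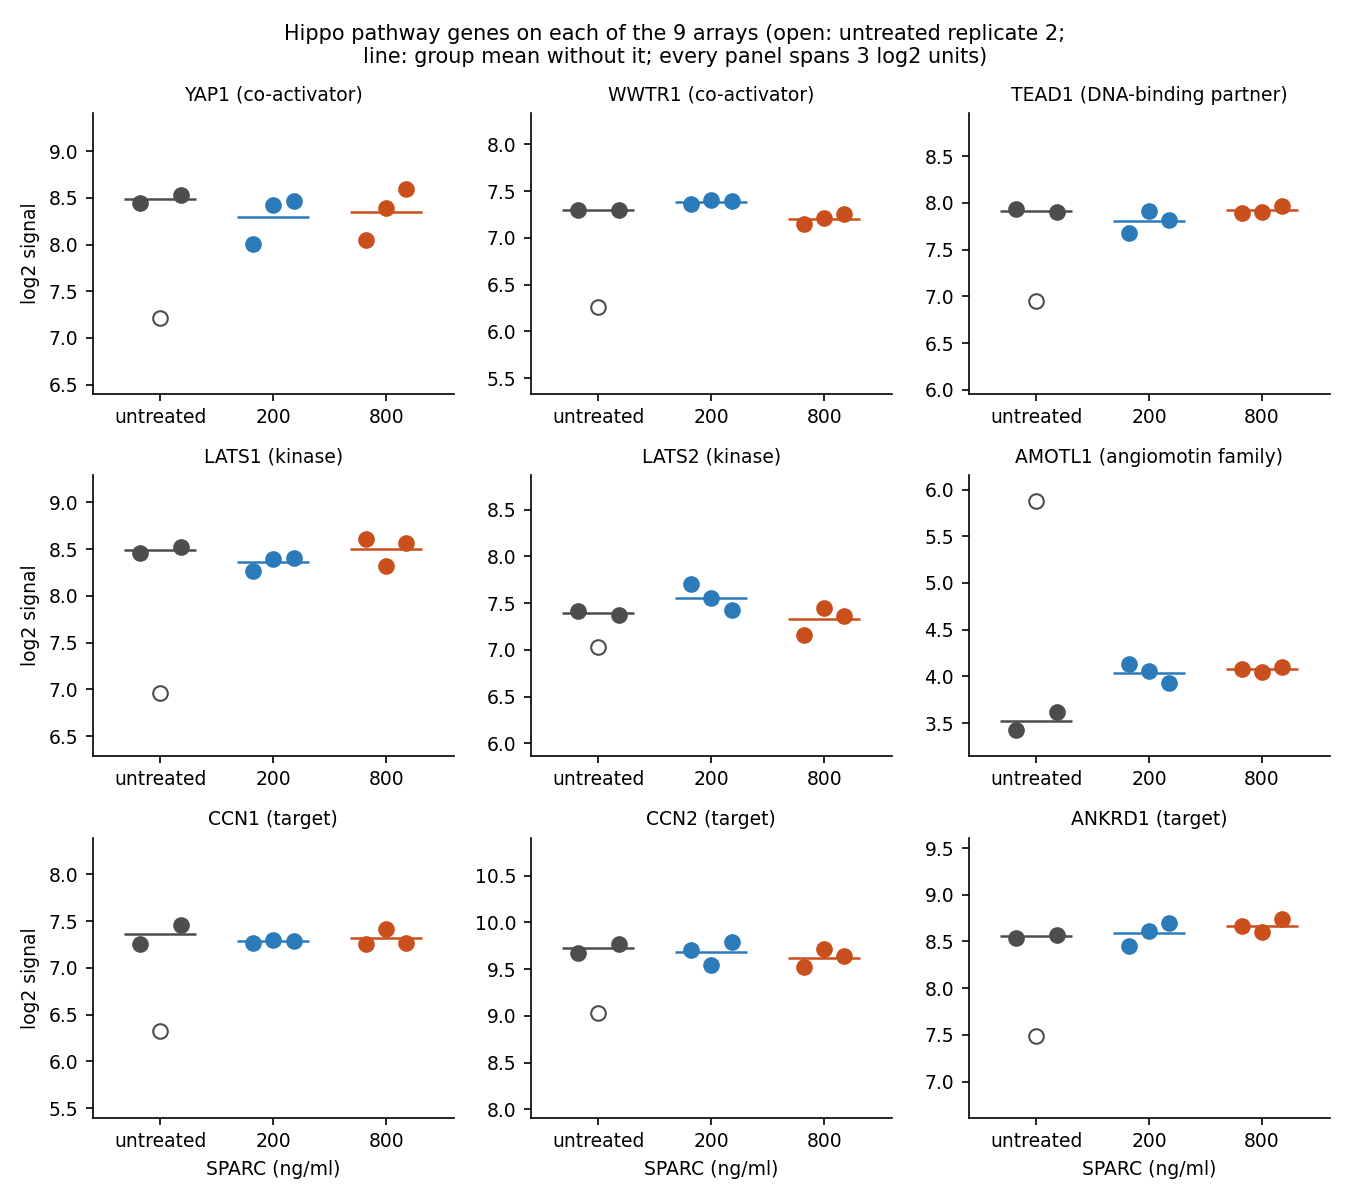
Log2 signal (vertical axis) of the 9 genes on each array, by SPARC dose in ng/ml (horizontal axis), with 1 point per array, untreated replicate 2 drawn open and lines at group means computed without it. In 8 panels the open point lies below all other points, and for AMOTL1 it lies above them at 5.87, against 3.43 to 4.13 on the other 8 arrays.

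The target genes of YAP1, WWTR1 and TEAD factors did not move past the test at either dose. CCN1 encodes a secreted matricellular protein that binds integrins, and its log2 signals were 7.26, 6.33 and 7.46 in untreated replicates 1, 2 and 3, 7.27, 7.29 and 7.29 at 200 ng/ml, and 7.26, 7.42 and 7.26 at 800 ng/ml. CCN2, the connective tissue growth factor, had 9.67, 9.03 and 9.77 untreated, 9.70, 9.55 and 9.79 at 200 ng/ml, and 9.52, 9.72 and 9.64 at 800 ng/ml. For both genes untreated replicate 2 was the low array and the other 8 arrays overlapped across groups. ANKRD1, an ankyrin repeat protein of the nucleus and sarcomere, had 8.54, 7.48 and 8.57 untreated, 8.46, 8.61 and 8.70 at 200 ng/ml, and 8.66, 8.60 and 8.74 at 800 ng/ml. The lowest 800 ng/ml array of ANKRD1, at 8.60, lay just above the highest untreated array, at 8.57. With all 9 arrays it was the only 1 of the 9 genes whose 800 ng/ml arrays lay wholly above the untreated ones. Over all genes the share was 6.08%. Untreated replicate 2 was the lowest array of ANKRD1, so leaving it out does not alter this, and the share of all genes is then 10.5%. Of the 9 genes 0 lay wholly below with all 9 arrays, against 5.14% of all genes. Since untreated replicate 2 was the lowest array in all but AMOTL1, no other outcome was possible in those genes. In bulk RNA, a change in the make-up of the cells and a change of RNA per cell cannot be told apart.

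Once untreated replicate 2 was left out, the ratios to untreated cells were close to 1 for all 3 targets. At 200 ng/ml they were 0.949 for CCN1 (95% interval 0.790 to 1.14), 0.971 for CCN2 (0.800 to 1.18) and 1.02 for ANKRD1 (0.850 to 1.23). At 800 ng/ml they were 0.969 (0.807 to 1.16), 0.935 (0.770 to 1.135) and 1.08 (0.896 to 1.30). These intervals limit the size of any change of the targets to about the fold values at their ends, on these 8 arrays. From all 9 arrays the ratios at 200 ng/ml were 1.204 (0.804 to 1.80), 1.14 (0.815 to 1.59) and 1.31 (0.866 to 1.98) in the same order. Those at 800 ng/ml were 1.23 (0.821 to 1.84), 1.10 (0.785 to 1.53) and 1.38 (0.913 to 2.09). The direction for CCN1 and CCN2 thus depended on untreated replicate 2, and no direction is given for either.

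The promoters of CCN2 and ANKRD1 are shown because these genes are among the readouts of TEAD-bound YAP1 and WWTR1. That of AMOTL1 is shown because its signal set it apart. The windows are the 250 bases before an annotated start, from RefSeq on GRCh38.p14, written 5′ to 3′ on the gene's strand. They lie at chr6:131951373-131951622, minus strand, for CCN2 and at chr10:90921088-90921337, minus strand, for ANKRD1. The AMOTL1 window lies at chr11:94768106-94768355, plus strand. The CCN2 and ANKRD1 windows adjoin the gene's annotated span. That of AMOTL1 lies inside its gene's span, chr11:94706460-94876748, so it precedes an internal start and is not a like window. Capitals mark the TEAD motif GGAATG and the AP-1 motif TGANTCA, each searched on both strands, and no marked matches overlap.
CCN2: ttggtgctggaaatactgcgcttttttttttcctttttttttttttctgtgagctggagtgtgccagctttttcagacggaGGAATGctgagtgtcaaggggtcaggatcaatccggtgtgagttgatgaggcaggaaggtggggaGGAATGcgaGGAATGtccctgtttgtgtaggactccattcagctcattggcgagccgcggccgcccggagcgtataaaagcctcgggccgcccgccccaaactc
ANKRD1: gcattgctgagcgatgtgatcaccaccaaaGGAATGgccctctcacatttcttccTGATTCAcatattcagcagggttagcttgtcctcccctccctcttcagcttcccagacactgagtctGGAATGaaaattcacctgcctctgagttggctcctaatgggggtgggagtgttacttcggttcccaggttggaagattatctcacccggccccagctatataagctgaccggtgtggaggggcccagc
AMOTL1: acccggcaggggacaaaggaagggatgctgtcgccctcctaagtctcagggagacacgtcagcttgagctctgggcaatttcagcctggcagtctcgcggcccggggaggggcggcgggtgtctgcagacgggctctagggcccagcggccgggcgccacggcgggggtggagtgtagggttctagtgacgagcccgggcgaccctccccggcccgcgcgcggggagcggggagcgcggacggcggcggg
CCN2 held 3 matches to GGAATG, which began 169, 104 and 95 bases before the start. ANKRD1 held 2, which began 220 and 128 bases before the start, and 1 match to TGANTCA that began at 195. In the AMOTL1 window neither set of letters occurs, which says nothing of sites outside it. Among 35116 windows of the same length over all genes, 11.9% held GGAATG at least once, 0.94% held it 2 or more times and 6.57% held TGANTCA. Windows were listed for 8 of the 10 genes, 11 in all. None was listed for TEAD1 or for CCN1, also a usual readout, so these could not be searched. YAP1 held 1 match to GGAATG, and so did 1 of the windows of AMOTL2, which began 69 bases before the start. WWTR1, LATS1 and LATS2 held 0, and 1 LATS1 window held TGANTCA, which began at 245. The WWTR1 windows and the other LATS1 window also lay inside the gene's annotated span. A match is a run of letters and does not show that a factor binds there.

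AMOTL1 was the member whose treated and untreated arrays were furthest apart once untreated replicate 2 was left out. Its protein belongs to the angiomotins, which bind YAP1 through short proline and tyrosine motifs and associate with tight junctions. Its log2 signals (TC1100013084.hg.1) were 3.43 and 3.62 in untreated replicates 1 and 3, 4.13, 4.06 and 3.93 at 200 ng/ml, and 4.08, 4.05 and 4.105 at 800 ng/ml. Untreated replicate 2 had 5.87. All 6 treated arrays thus lay above untreated replicates 1 and 3 and below untreated replicate 2. The highest and the lowest of the 6 treated arrays differed by less than the gap between the 800 ng/ml arrays and untreated replicates 1 and 3.

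Without untreated replicate 2 the log2 difference of AMOTL1 from untreated cells was 0.52 ± 0.12 (SE) at 200 ng/ml and 0.56 ± 0.12 at 800 ng/ml, ratios of 1.43 and 1.47. Its direction turned with all 9 arrays, to −0.265 ± 0.497 and −0.228 ± 0.497. Both doses share the untreated arrays, so the like values at 200 and 800 ng/ml are not separate evidence. In the fit without untreated replicate 2 these differences exceeded those of 98.1% and 99.1% of all genes, and AMOTL1 did not pass over all genes. It was among the genes whose treated arrays lay wholly above the untreated ones, a set of 13.8% of all genes at 200 ng/ml and 10.5% at 800 ng/ml. Since AMOTL1 was picked from these contrasts, nothing is read from its place in them.

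Several measured features of the arrays go with this pattern. AMOTL1 lay in the dimmest 25% of genes, with a mean of 3.925 over the 8 arrays, and the table gives no call of signal above background. Untreated replicate 2 lay 2.35 above the mean of untreated replicates 1 and 3 for AMOTL1, where the median of those dim genes was 0.38. Of the 4422 dim genes, 7, AMOTL1 included, deviated that far upward. AMOTL1 was picked from contrasts with these same 2 untreated arrays, whose mean of 3.52 lay below its 8-array mean. Its deviation and its place among dim genes are thus raised by the choice. The array that leaned slightly the same way in dim genes, 200 ng/ml replicate 1, also had the highest AMOTL1 signal of the treated arrays. Its part in the result was not tested. The glial and neuronal transcripts were high in 800 ng/ml replicates 2 and 3, and their part in the AMOTL1 values was not tested. With these arrays and untreated replicate 2 left out, the difference at 800 ng/ml rested on 1 treated array and was 0.56.

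**Figure D2:**
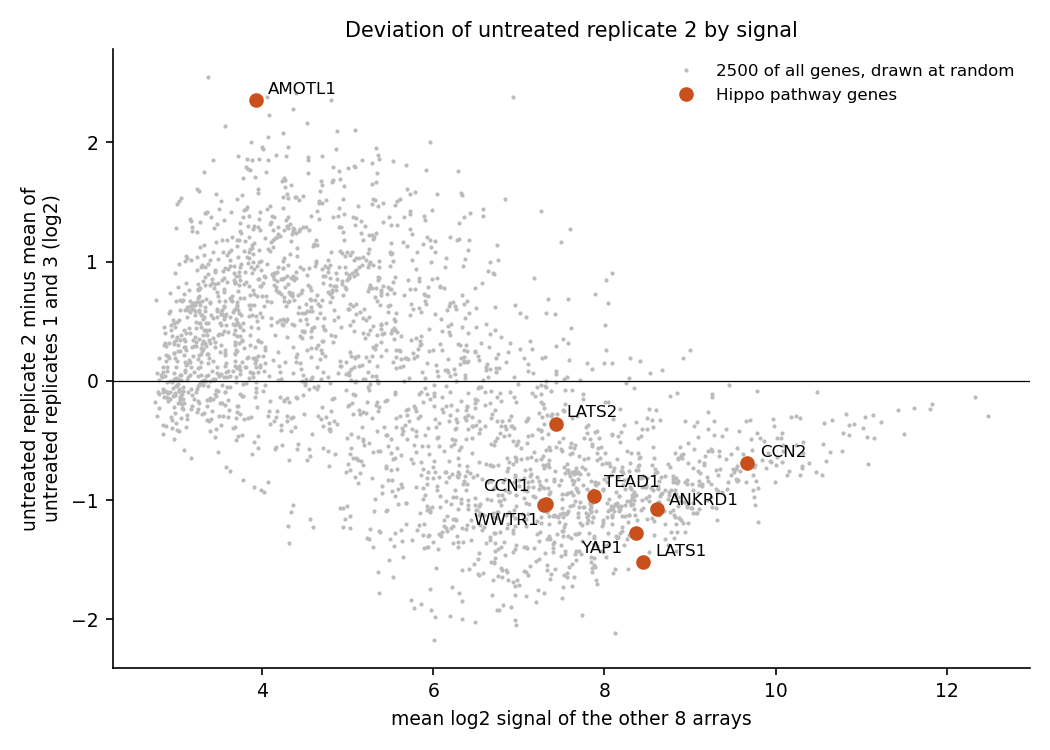
Log2 deviation of untreated replicate 2 from the mean of untreated replicates 1 and 3 (vertical axis) against the mean log2 signal of the other 8 arrays (horizontal axis), for 2500 genes drawn at random (grey) and the 9 Hippo pathway genes (orange). AMOTL1 lies at 2.35 among the dim genes, and the other 8 genes lie between −1.52 and −0.36 among the bright ones.

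The other 8 genes lay in the brightest 25%, where the median gene of untreated replicate 2 was 0.82 below untreated replicates 1 and 3. LATS1 deviated most, by −1.52, followed by YAP1 at −1.27, and LATS2 least, by −0.36. In each of the 8 genes untreated replicate 2 was the lowest array of all 9. Their differences from untreated cells with 9 arrays were above 0 for all 8 at both doses.

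The 2 co-activators differed in how tightly the arrays agreed. YAP1 had log2 signals of 8.44, 7.22 and 8.53 untreated, 8.01, 8.43 and 8.46 at 200 ng/ml, and 8.05, 8.39 and 8.59 at 800 ng/ml. Replicate 1 was the low array at each dose and the groups overlapped. Without untreated replicate 2 its log2 difference from untreated was −0.19 ± 0.19 (SE) at 200 ng/ml and −0.14 ± 0.19 at 800 ng/ml. Opposite signs came from all 9 arrays, at 0.235 ± 0.327 and 0.28 ± 0.33. The within-group SD over the 8 arrays was 0.237 for YAP1 and larger than that of 72.5% of genes.

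WWTR1, the paralogue of YAP1, had the tightest groups of the 9 genes. Its log2 signals were 7.300 and 7.296 in untreated replicates 1 and 3, 7.365, 7.407 and 7.391 at 200 ng/ml, and 7.149, 7.212 and 7.259 at 800 ng/ml, with 6.26 in untreated replicate 2. All 800 ng/ml arrays lay below all 200 ng/ml arrays, and untreated replicates 1 and 3 lay between the doses. The within-group SD over the 8 arrays was 0.038, below that of all but 0.6% of genes. The log2 difference of 800 from 200 ng/ml, whose value does not involve the untreated arrays, was −0.18 ± 0.09 (SE) without untreated replicate 2, a ratio of 0.882 whose 95% interval ran from 0.762 to 1.02 (limma, adjusted p = 0.386). From all 9 arrays the same difference had an SE of 0.26 (adjusted p = 0.999). WWTR1 was the only 1 of the 9 genes whose dose groups did not overlap, where 9.72% of all genes were lower in this way and 12.1% higher.

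Against untreated cells WWTR1 gave no settled direction at 800 ng/ml. The log2 difference was 0.25 ± 0.26 (SE) with all 9 arrays and −0.09 ± 0.105 without untreated replicate 2. At 200 ng/ml it was 0.44 ± 0.26 and 0.09 ± 0.105 in the same order, and the 200 ng/ml arrays lay above every untreated array. Of the 9 genes, WWTR1 and LATS2 did so with all 9 arrays, against 3.92% of all genes. Untreated replicate 2 was the lowest array of both, so leaving it out does not alter this, and the share of all genes is then 13.8%. No gene of the 9 had 200 ng/ml arrays wholly below all 3 untreated arrays, as 3.06% of all genes did. In all but AMOTL1 untreated replicate 2 was the lowest array, so no other outcome was possible in those genes.

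TEAD1 encodes a factor that carries YAP1 and WWTR1 to DNA. Its log2 signals were 7.93, 6.95 and 7.90 untreated, 7.68, 7.92 and 7.81 at 200 ng/ml, and 7.89, 7.91 and 7.96 at 800 ng/ml. The groups overlapped in every comparison. Without untreated replicate 2 the log2 difference was −0.11 ± 0.115 (SE) at 200 ng/ml and 0.003 ± 0.115 at 800 ng/ml, with a 95% interval of −0.255 to 0.262 for the latter. All 9 arrays gave 0.207 ± 0.255 and 0.325 ± 0.255, so the sign at 200 ng/ml turned with untreated replicate 2.

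The 2 kinases that phosphorylate the co-activators did not pass the test either. LATS1 had 8.455, 6.965 and 8.52 untreated, 8.27, 8.395 and 8.41 at 200 ng/ml, and 8.61, 8.32 and 8.57 at 800 ng/ml. Its 200 ng/ml arrays lay below untreated replicates 1 and 3, with a log2 difference of −0.13 ± 0.13 (SE), and its 800 ng/ml arrays overlapped them, with 0.014 ± 0.127. Such a position was found for 17.8% of all genes, so 1 of 9 is no more than the background. LATS1 had, from all 9 arrays, a log2 difference of 0.38 ± 0.35 at 200 ng/ml and 0.52 ± 0.35 at 800 ng/ml.

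LATS2, which is also a known target of YAP1 and so part of a feedback loop, had 7.41, 7.03 and 7.37 untreated, 7.70, 7.55 and 7.425 at 200 ng/ml, and 7.16, 7.45 and 7.365 at 800 ng/ml. The 200 ng/ml arrays lay above every untreated array and overlapped the 800 ng/ml arrays. Its log2 difference at 200 ng/ml was 0.29 ± 0.19 (SE) with all 9 arrays and 0.17 ± 0.13 without untreated replicate 2, and at 800 ng/ml it was 0.06 ± 0.19 and −0.06 ± 0.13. Between the doses LATS2 was lower at 800 ng/ml by a log2 difference of −0.23 ± 0.12 without untreated replicate 2 (limma, adjusted p = 0.383). LATS2 and WWTR1 had the smallest p-values of the 9 genes in that comparison, and neither passed.

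**Figure D3:**
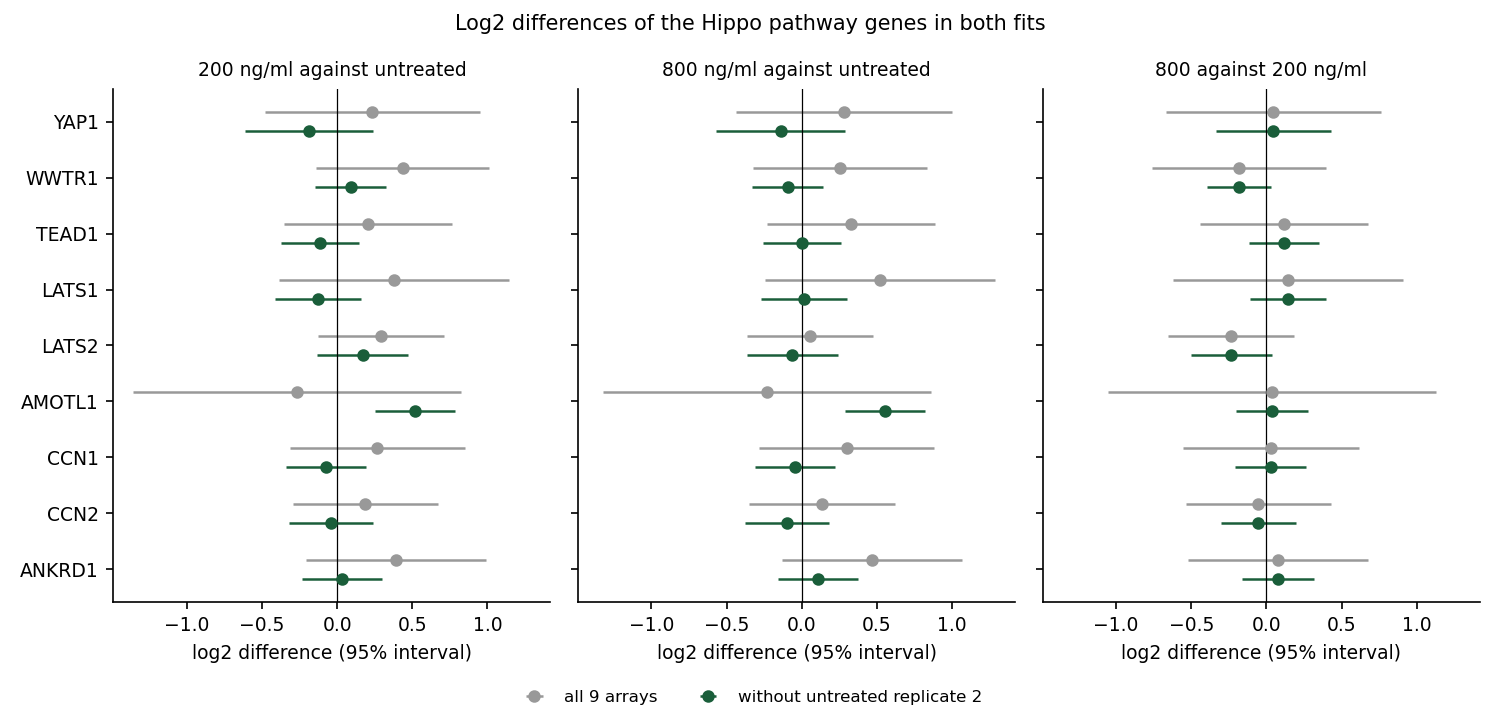
Log2 differences of the 9 genes (horizontal axis, points) with 95% intervals (bars) in the 3 comparisons, from all 9 arrays (grey) and without untreated replicate 2 (green). AMOTL1 lies at 0.52 and 0.56 against untreated without that array and at −0.265 and −0.228 with it, and between the doses all 9 genes lie between −0.23 and 0.14 in both fits.

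Over the 9 genes, 8 had a log2 difference above 0 at each dose with all 9 arrays. The medians of the 9 were 0.27 and 0.28, against 0.03 and 0.04 over all genes. Those 8 were bright genes, for which untreated replicate 2 read low, so all genes are not a like background here. Leaving out untreated replicate 2 gave 4 above 0, AMOTL1 among them, and 5 below at each dose. The medians were −0.04 and −0.045, against −0.02 and −0.006 over all genes. AMOTL1, whose treated arrays lay wholly above at both doses without that array, is left aside because it was chosen there. Of the other 8 genes, 2 (WWTR1 and LATS2) had 200 ng/ml arrays wholly above the untreated ones and 1 (LATS1) wholly below. Over all genes 13.8% and 17.8% did so. At 800 ng/ml, 1 of these 8 (ANKRD1) lay wholly above and 1 (WWTR1) wholly below, where 10.5% and 11.8% of all genes did so. Between the doses 6 genes were above 0 and 3 below, with a median of 0.04 against 0.01. The members' intervals between the doses were narrow without untreated replicate 2, reaching 1.18-fold either way for the median member against 1.24-fold for the median gene.

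Other genes of the pathway, 49 measured of 57 listed in 4 groups, gave 0 genes past the test in any comparison in either fit. Those named from each group were picked for the largest differences without untreated replicate 2. Nothing is therefore read from dose groups of theirs that do not overlap. The kinase module, with 5 genes, had medians without untreated replicate 2 of −0.065 at 200 ng/ml and −0.05 at 800 ng/ml. MOB1A, the co-activator of LATS kinases, had −0.10 ± 0.11 (SE) and −0.09 ± 0.11, and SAV1, the scaffold of STK3 and STK4, had −0.08 ± 0.18 and 0.11 ± 0.18. With all 9 arrays the 5 genes were all above 0 at both doses, with MOB1A at 0.16 ± 0.23 and 0.17 ± 0.23 and SAV1 at 0.29 ± 0.30 and 0.48 ± 0.30. Between the doses SAV1 had 0.19 ± 0.16 and STK3 −0.09 ± 0.155 without that array, with SEs of 0.30 and 0.24 from all 9.

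Among 21 upstream regulators and adaptors FRMD6 and WWC3 had the lowest and highest differences from untreated cells without untreated replicate 2, whereas with all 9 arrays these were FAT4 (−0.728 and −1.002 at 200 and 800 ng/ml) and PTPN14 (0.645 and 0.596). FRMD6, a FERM domain protein related to the fly regulator Expanded, had log2 signals of 4.84, 4.52 and 4.73 untreated, 4.22, 3.95 and 4.23 at 200 ng/ml, and 4.17, 4.12 and 4.81 at 800 ng/ml. All 200 ng/ml arrays lay below all 3 untreated arrays, untreated replicate 2 included. Over all genes 3.06% did so with all 9 arrays and 17.8% without untreated replicate 2. The log2 difference at 200 ng/ml was −0.654 ± 0.206 (SE) without untreated replicate 2 and −0.57 ± 0.22 with it (limma, adjusted p = 0.333 and 0.966). At 800 ng/ml it was −0.42 ± 0.21 and −0.33 ± 0.22, with replicate 3 among the untreated values.

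WWC3, a scaffold of the KIBRA family that binds LATS kinases, had 3.95, 3.75 and 3.34 untreated, 4.07, 4.135 and 4.20 at 200 ng/ml, and 4.27, 3.88 and 4.155 at 800 ng/ml. Its 200 ng/ml arrays lay above every untreated array, as in 3.92% of all genes with all 9 arrays and 13.8% without untreated replicate 2. The log2 difference was 0.49 ± 0.19 (SE) without untreated replicate 2 and 0.45 ± 0.21 with it (limma, adjusted p = 0.398 and 0.966). At 800 ng/ml the values were 0.46 ± 0.19 and 0.42 ± 0.21, and the groups overlapped. For FRMD6 and WWC3 the direction was thus the same with and without untreated replicate 2, and the table gives no background calls for either. Both were picked for large differences without that array, and the 2 fits share all other arrays. The like direction is therefore partly built in. CRB3, an apical polarity protein, was lower at 800 than at 200 ng/ml in every array, with 7.57, 7.585 and 7.42 at 200 ng/ml and 7.10, 7.27 and 7.14 at 800 ng/ml. That difference was −0.353 ± 0.107 without untreated replicate 2 (limma, adjusted p = 0.218) and had an SE of 0.26 with it. Over all genes 9.72% had 800 ng/ml arrays wholly below the 200 ng/ml arrays. FAT4, a large cadherin upstream of the cascade, had −0.27 ± 0.17 between the doses, with an SE of 0.51 from all 9 arrays.

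The 7 partners of the co-activators had medians without untreated replicate 2 of 0.01 at 200 ng/ml and −0.06 at 800 ng/ml. VGLL4, which competes with YAP1 for TEAD factors, had −0.07 ± 0.155 (SE) at 200 ng/ml and −0.185 ± 0.155 at 800 ng/ml without that array, and −0.05 ± 0.19 and −0.16 ± 0.19 with it. At 800 ng/ml its arrays, at 6.996, 6.89 and 6.94, lay below all 3 untreated arrays, at 7.16, 7.06 and 7.09. Over all genes 5.14% did so with all 9 arrays and 11.8% without untreated replicate 2. TEAD4 had −0.05 ± 0.15 and −0.13 ± 0.15 without untreated replicate 2 and 0.37 ± 0.31 and 0.29 ± 0.31 with it. Between the doses VGLL3 and VGLL4 had −0.14 ± 0.13 and −0.11 ± 0.14, with SEs of 0.24 and 0.19 from all 9 arrays.

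The 16 other target genes divided 9 above and 7 below 0 at 200 ng/ml and 10 and 6 at 800 ng/ml without untreated replicate 2, with medians of 0.005 and 0.05. With all 9 arrays they divided 13 and 3 at 200 ng/ml and 8 and 8 at 800 ng/ml, with medians of 0.02 at both doses. IGFBP3, a binding protein of insulin-like growth factors, had 0.47 ± 0.23 (SE) at 200 ng/ml and MYOF, the membrane repair protein myoferlin, 0.43 ± 0.20. All 9 arrays gave 0.25 ± 0.26 and 0.40 ± 0.22. The MYOF arrays at 200 ng/ml, at 4.39, 4.39 and 4.03, lay above the untreated arrays, at 4.01, 3.93 and 3.67. Over all genes 3.92% did so with all 9 arrays and 13.8% without untreated replicate 2. At 800 ng/ml FJX1, a secreted and Golgi protein related to the fly four-jointed kinase, had −0.40 ± 0.24 and F3, the coagulation initiator tissue factor, −0.28 ± 0.26, against −0.80 ± 0.34 and −0.42 ± 0.27 with all 9 arrays. Between the doses FJX1 had −0.40 ± 0.22 and IGFBP3 −0.35 ± 0.20, with SEs of 0.34 and 0.26 from all 9 arrays.

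**Figure D4:**
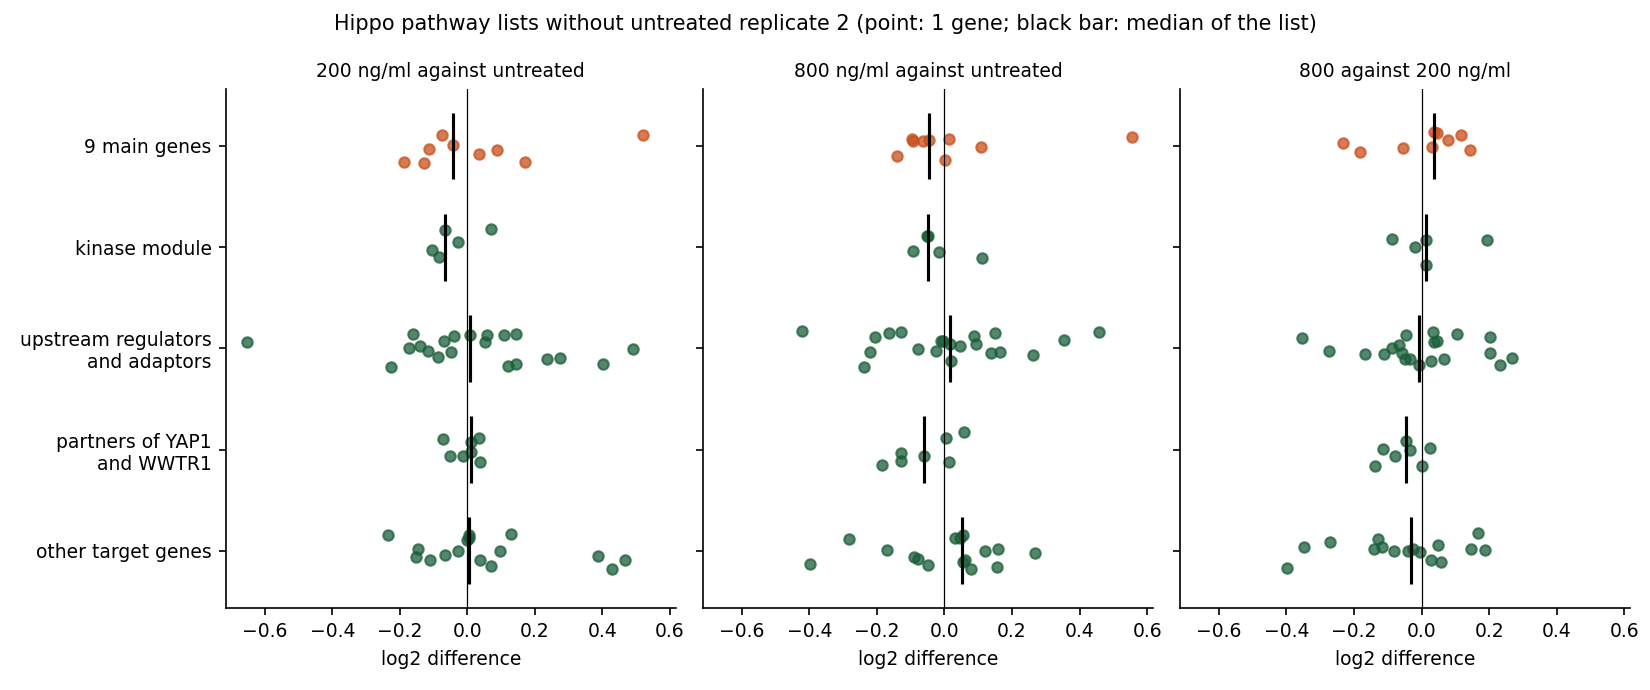
Log2 differences without untreated replicate 2 (horizontal axis) of the 9 main genes (orange) and of 4 lists of other Hippo pathway genes (green), 1 point per gene and a black bar at each list's median, in the 3 comparisons. The medians lie between −0.065 and 0.05, and AMOTL1 is the rightmost orange point at 0.52 and 0.56 against untreated, where the fit of all 9 arrays put it below 0.

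The genes whose profile over the 8 arrays was most like that of AMOTL1 were taken by the root mean square difference between profiles, each centred on the gene's own mean. They were PPM1E, MAGEB16, RUFY2, MIEF2 and RNASET2, at 0.087, 0.094, 0.095, 0.096 and 0.101 log2 units. PPM1E, a protein phosphatase, had log2 signals of 4.01 and 4.08 in untreated replicates 1 and 3, 4.25 to 4.49 at 200 ng/ml and 4.425 to 4.51 at 800 ng/ml. None of the other 8 Hippo pathway genes was near the top of this order. ANKRD1 was closest at rank 2085 of 17686 (0.235) and YAP1 furthest at rank 14306 (0.374). The measure also depends on each gene's own spread. The SD over the 8 arrays was 0.091 for ANKRD1 and 0.216 for YAP1, against 0.26 for AMOTL1. A gene that hardly varies can thus rank nearer than a variable one, so these ranks are not read as likeness. In untreated replicate 2, which the measure did not use, these 5 genes did not share a direction. MAGEB16 and MIEF2 were at 4.91 and 6.34, above their other 8 arrays as AMOTL1 was, RUFY2 and RNASET2 at 4.44 and 5.56, below theirs, and PPM1E at 4.34, within the range of its others.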

How the data were processed

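Per the labels, total RNA of 9 HepG2 samples was biotin-labelled for a 1-colour array. The authors deposited a log2 value for each transcript cluster on each array. No source states the scale, which was taken from the values themselves. The submitters' processing notes name R 3.0, and no source used here states the normalization, background correction or filters. Of 21448 clusters, 17709 had 1 gene symbol, 0 several and 3739 none in the platform annotation, and RefSeq (GRCh38.p14) changed 0 symbols through Entrez identifiers. The cluster with the highest mean per gene was kept, which left 17687 genes. No 2 arrays held identical values.

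A single limma fit (version 3.58.1, R 4.3.3, lmFit and eBayes) held all 3 groups, on the values as deposited, with Benjamini-Hochberg adjustment over all genes, a threshold of 0.05 and 95% intervals from the moderated fit. The procedure was tested on simulated data whose means and spread came from the arrays other than untreated replicate 2. No deviating array was simulated, so this does not show what change the fit of all 9 arrays could find. The number of arrays limits the precision. Same-numbered arrays of different groups correlated at −0.253 to 0.113 in their deviations from group means, and different-numbered ones at −0.238 to 0.268. The untreated mean included untreated replicate 2, so the values with untreated arrays cannot decide on a pairing. Between the doses same-numbered arrays correlated at −0.046 to 0.034. No source used here states a pairing, and the numbers were not taken as pairs. All members, lists and rules were chosen with earlier results of these data known. The 9 measured members were all named. Of each of 4 pathway lists the 2 genes with the largest absolute difference per comparison without untreated replicate 2 were named, and the 5 genes most like AMOTL1. Alternatives covered scaling, filters, priors, a replicate block, array weights and leaving out arrays.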

Additional observations from a re-analysis of the deposited data

How the results depend on the processing

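With all 9 arrays 0 of the 9 members and 0 of all genes were called in each of the 3 comparisons (limma). The members' count was 0 under every alternative run except array weights, which called 1 member, AMOTL1, at 200 and at 800 ng/ml against untreated (log2 differences 0.55 and 0.63), the contrasts it was picked from, so nothing is read from that call. That fit called 1971, 732 and 6 of all genes in the 3 comparisons and gave untreated replicate 1 a weight of 10.66 against 0.0399 for replicate 2. With array weights but without untreated replicate 2, 0 members and 0 genes were called. Leaving out each array in turn gave 0 members called each time, and 0 to 12 of all genes at 800 ng/ml against untreated and 0 to 15 between the doses, the highest without 800 ng/ml replicate 1. With the replicate number as a block 0 members and 0 genes were called. The members' differences, none of them called with all 9 arrays at equal weight, changed sign in 84 of 591 alternative values. Many of the 591 could not change sign. Filters, another prior, the replicate block over all 9 arrays and leaving out an array outside a comparison leave the difference itself unaltered. Leaving out untreated replicate 2 changed 12 of 27 signs, AMOTL1 included, and quantile normalization of all 9 arrays 4. The 27 include the differences between the doses, which do not use that array, so all 12 were comparisons with untreated cells. The direction for AMOTL1 against untreated was below 0 in every alternative that kept untreated replicate 2 at full weight and gave AMOTL1 a value, and above 0 in those that left it out or gave it little weight. Leaving out the dimmest 50% of genes removed AMOTL1 and kept the other 8 members. The table holds no background calls, so whether dim genes such as AMOTL1 lay above background is unknown.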
